A study of Mus musculus with 18 samples.

Results

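The mitochondrial ribosome, or mitoribosome, translates the few mRNAs that the mitochondrial genome encodes, all of them for subunits of the respiratory chain and the ATP synthase. Its rRNAs come from the mitochondrial genome, whereas every one of its proteins is encoded in the nucleus, made on cytosolic ribosomes and imported. Many of these proteins descend from bacterial ribosomal proteins, and others are additions of the mitochondrial lineage that have no bacterial counterpart.

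The genes described here are the protein-coding genes in the count tables whose symbol is Mrpl or Mrps followed by a number and at most 1 letter, with Ensembl identifiers paired to symbols through GENCODE vM21. The rule used no measured value. It found 78 genes among 55471 identifiers, 49 named for the large subunit (Mrpl) and 29 for the small subunit (Mrps), on 17 chromosomes. A few symbols do not follow the assembled particle: in the standard nomenclature Mrps18a and Mrps30 encode proteins of the large subunit (mL66 and mL65), and the product of Mrps36 is a subunit of the 2-oxoglutarate dehydrogenase complex. Counts are given by symbol, and by structure where that changes them.

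The cells were E14, an established line of mouse embryonic stem cells, either wild type (Wt) or Eif2ak4-/- (labelled Gcn), by that label without GCN2, the kinase that senses uncharged tRNA and phosphorylates the translation factor eIF2α. Each genotype was kept for 3 h in SILAC medium that held all amino acids (Unstarved), lacked arginine (Arg) or lacked leucine (Leu). All 6 groups grew with leukaemia inhibitory factor, and all received 5% dialyzed serum during these 3 h. Each group had 3 replicates, 18 libraries in all. The labels do not say that replicates were separate cultures or whether the knock-out is 1 clone, so the p-values rest on sample-to-sample spread that may be only technical.

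Libraries held 14.8 to 38.8 M counts, and the genes described here took 0.534% to 0.673% of them. Eif2ak4 itself stood at 27.0 to 33.4 CPM (counts scaled to library size, with TMM factors over the 18 libraries) in the Wt libraries and at 4.04 to 6.37 CPM in the Gcn libraries. The pluripotency markers, among them Pou5f1, Nanog and Zfp42, summed to at least 7045 CPM in every library. The 8 fibroblast markers summed to 16.5 to 29.3 CPM in Wt and 7.97 to 11.6 CPM in Gcn, with Lum at 0 in both unstarved groups, and the 12 markers of differentiated lineages to 97.8 to 115 CPM and 36.2 to 59.6 CPM. Fewer cells of a type and less RNA per cell cannot be told apart in such bulk samples. The 3 Gcn libraries numbered 1 stood apart from the other 6 Gcn libraries on a component that held 19.6% of the variance, so counts in Gcn are given with and without them. Of 30 named calls in the Gcn comparisons and the genotype contrast, 29 held without them and no log2 fold change moved by more than 0.09; the lost call was Mrpl57 by genotype, and Mrps16 in Gcn Leu was gained.

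Before any comparison, the upstream sequence of 5 genes is shown, because these genes carry the results below: Mrpl14 fell the most, Mrpl58 fell in all starved groups, Mrps12 and Mrps18a fell under arginine starvation, and Mrpl9 rose. Each run holds 120 bases that end before the RefSeq and the GENCODE start of the gene, 5′ to 3′ on the coding strand, from RefSeq promoters on GRCm38.p6. Capitals mark matches to the 5 motifs searched on both strands, namely GCATGCGC (NRF1), CCGGAAG (ETS factors such as GABP), AAGATGGCG (YY1), CACGTG (E-box) and CCAAT (NFY). The stretches lie at chr17:45686202-45686321 (Mrpl14, plus strand), chr11:115403632-115403751 (Mrpl58, plus), chr7:28741822-28741941 (Mrps12, minus), chr17:46110866-46110985 (Mrps18a, plus) and chr3:94443198-94443317 (Mrpl9, plus).
Mrpl14: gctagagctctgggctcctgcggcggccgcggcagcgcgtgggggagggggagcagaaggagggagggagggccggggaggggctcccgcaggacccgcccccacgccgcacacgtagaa
Mrpl58: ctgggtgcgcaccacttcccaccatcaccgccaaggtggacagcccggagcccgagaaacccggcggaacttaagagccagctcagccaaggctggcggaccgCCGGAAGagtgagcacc
Mrps12: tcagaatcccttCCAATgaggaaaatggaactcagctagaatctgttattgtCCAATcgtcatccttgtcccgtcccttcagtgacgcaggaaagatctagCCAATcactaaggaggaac
Mrps18a: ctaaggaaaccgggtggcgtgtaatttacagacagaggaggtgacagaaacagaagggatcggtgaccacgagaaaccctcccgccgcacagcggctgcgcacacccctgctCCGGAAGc
Mrpl9: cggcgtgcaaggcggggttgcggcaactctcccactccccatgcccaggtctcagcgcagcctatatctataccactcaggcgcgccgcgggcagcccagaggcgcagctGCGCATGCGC

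The stretch of Mrpl14 held none of the motifs, and neither did the rest of its 250 bases before the start. Mrpl58 and Mrps18a each showed CCGGAAG, Mrps12 showed CCAAT at 3 places, and Mrpl9 showed GCATGCGC on both strands in overlapping matches. Windows of 300 bases, from 250 before to 50 after the start, were at hand for 69 of the 78 genes. CCGGAAG was present in 26 of these 69 (37.7%), against 18.8% of the promoters of 11508 genes tested here and 9.93% of all 27025 promoters. GCATGCGC and AAGATGGCG were each present in 8 (11.6%), against 5.69% and 3.26% of the tested genes' promoters. CACGTG was present in 5 (7.25%, against 11.5%) and CCAAT in 27 (39.1%, against 43.1%). GCATGCGC was in 7 of 43 large subunit windows and in 1 of 26 small subunit windows, and CCGGAAG in 15 and 11. Of the 26 genes with CCGGAAG, 14 were lower after arginine starvation in Wt, as were 18 of the 43 without it. These matches are descriptions of letters in a window, and no test was made of them.

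Per kilobase of exon, counting all annotated exons of a gene, the highest levels in Wt Unstarved were those of Mrpl34 at 171 ± 6.0, Mrpl18 at 151 ± 7.2 and Mrpl12 at 139 ± 13 CPM per kb (SD, n = 3). Mrpl34 and Mrpl18 encode large subunit proteins, and Mrpl12 forms the flexible stalk that recruits translation factors. The lowest levels were those of Mrpl53, listed at 0 in all 3 libraries, Mrpl33 at 0.637 ± 0.055 and Mrpl23 at 1.95 ± 0.25 CPM per kb. Neighbours at the top lay close to each other's spread, and the order depends on the length used. With the length of the basic protein-coding transcripts, Mrpl42 (237 ± 19), Mrpl20 (187 ± 5.5) and Mrpl18 (173 ± 8.3 CPM per kb) were highest, and Mrpl33 rose to 9.77 ± 0.84. The medians were 32.3 CPM per kb for large and 20.1 for small subunit genes by all exons, and 58.4 and 51.6 by the coding transcripts.

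Mrpl53 had 7 counts over all 18 libraries and was the only one of the 78 to fail the filter on low counts, which leaves 77 tested genes, 48 large and 29 small. Of its exonic bases 88.0% lie in other annotated genes on the same strand. Of the other genes, Mrps34 (77.8%) and Mrps25 (69.8%) also shared over 50% of their exonic bases with another gene, and 45 of the 78 shared none. For Mrps25 the shared bases lie on the opposite strand (Nr2c2), and for Mrps34 on both strands (Nme3 and Mapk8ip3). The strand setting of the counting is not given in the sources used here, so the reads of such neighbours cannot be told apart. Pseudogenes that bear the parent's symbol are annotated for Mrpl48, Mrpl23 and Mrps36, which makes the values of these 3 genes uncertain. Pseudogenes under other names were not searched for, so the other genes may have some too.

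The first question was how the genes responded when wild-type cells lost an amino acid. In Wt Arg against Wt Unstarved, 34 of 77 genes were lower and 4 were higher at an adjusted p under 0.05 in edgeR's quasi-likelihood test, where 20.0% and 20.9% of all 16140 genes tested were. By subunit, 21 of 48 large subunit genes were lower (median log2 fold change -0.15) and 13 of 29 small subunit genes (median -0.17), beside a median of -0.01 over all genes. With Mrps18a and Mrps30 counted in the large subunit and Mrps36 in neither, the counts were 22 of 50 and 12 of 26. A fit with the replicate number as a block called 45 of the 77 in either direction, beside 50.1% of all genes. Without the block these were 38 and 40.9%. The largest falls were those of Mrpl14, Mrps12, Mrps6 and Mrpl12. The 4 genes that rose were Mrps31, Mrpl1, Mrpl27 and Mrpl9.

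Without leucine most medians and calls lay on the same side. In Wt Leu against Wt Unstarved, 20 of 77 were lower and 2 higher, where 14.1% and 15.5% of all genes tested were. By subunit, 13 of 48 large subunit genes (median -0.10) and 7 of 29 small subunit genes (median -0.08) were lower. Mrpl14, Mrpl58, Mrpl28 and Mrpl18 fell the most, and Mrpl32 and Mrpl2 were the 2 that rose. With the replicate block 30 of the 77 were called in either direction, beside 40.6% of all genes, in place of 22 and 29.6%. Both starved groups share the Wt Unstarved libraries.

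**Figure D1:**
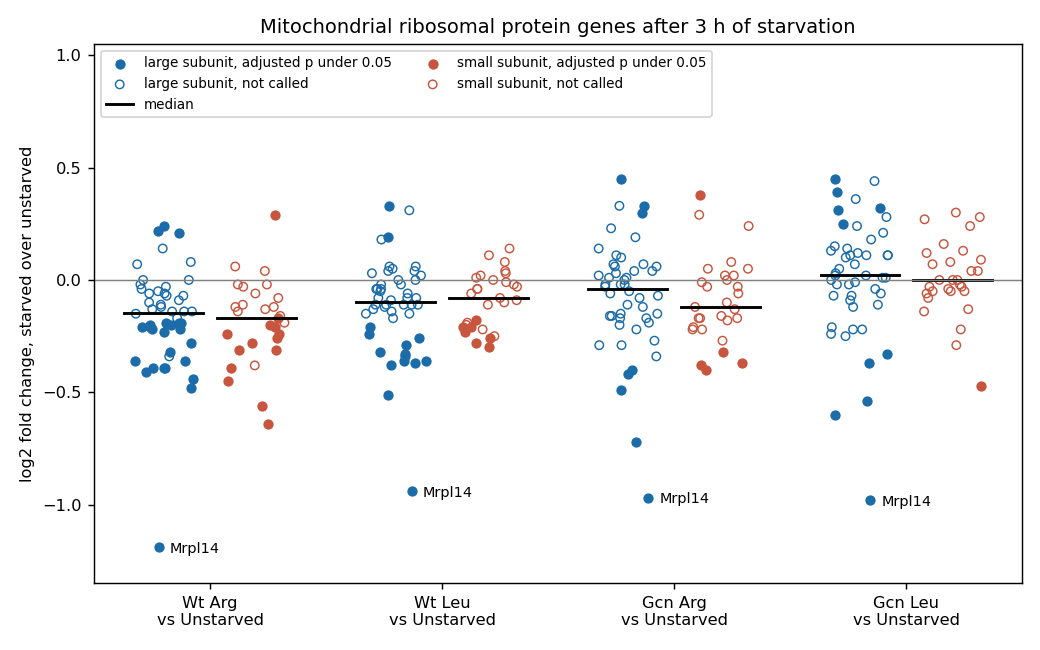
Log2 fold change (vertical axis) of each of the 77 tested genes in the 4 comparisons of starved with unstarved cells, 1 point per gene, large subunit in blue and small subunit in red, filled where the adjusted p was under 0.05, with the median as a bar. Mrpl14 lies lowest in each comparison, at -1.19, -0.94, -0.97 and -0.98, and the medians lie below 0 in both Wt comparisons.

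**Figure D2:**
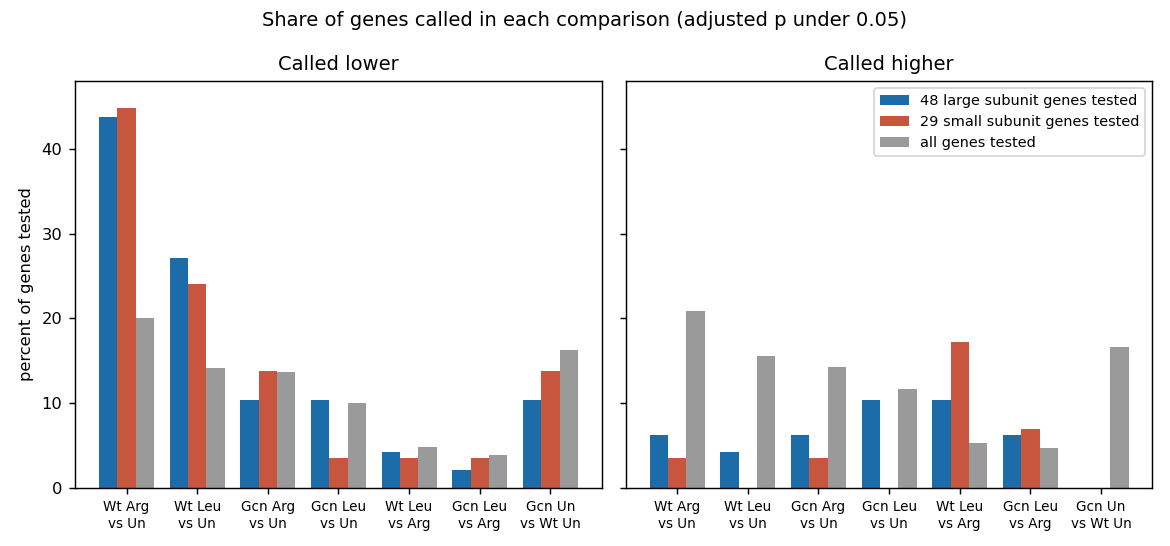
Percent of the large subunit genes, the small subunit genes and all genes tested that were called lower (left) or higher (right) in 7 comparisons, with Unstarved shortened to Un. In Wt Arg the lower share was 43.8% of large and 44.8% of small subunit genes beside 20.0% of all genes.

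In sum over the genes of each subunit, the Wt Unstarved libraries held 4357, 4205 and 4505 CPM of large subunit mRNA. Wt Arg libraries held 3873, 3996 and 3852 CPM and Wt Leu libraries 4020, 4047 and 3921 CPM. Both starved groups lay wholly below the unstarved group. For the small subunit the sums were 1975, 1902 and 2012 CPM unstarved, 1767, 1798 and 1729 CPM in Arg, and 1881, 1897 and 1812 CPM in Leu, again without overlap with the unstarved group. The ratio of the large to the small sum was 2.21 to 2.24 in Wt Unstarved, 2.19 to 2.23 in Wt Arg and 2.13 to 2.16 in Wt Leu, so Wt Leu had the lowest ratio in Wt. In Gcn the ratio was 2.18 to 2.25 unstarved, 2.24 to 2.31 in Arg and 2.17 to 2.25 in Leu, where Leu overlapped Unstarved and Arg reached highest. These sums weigh abundant genes most, and no test was made of them.

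**Figure D3:**
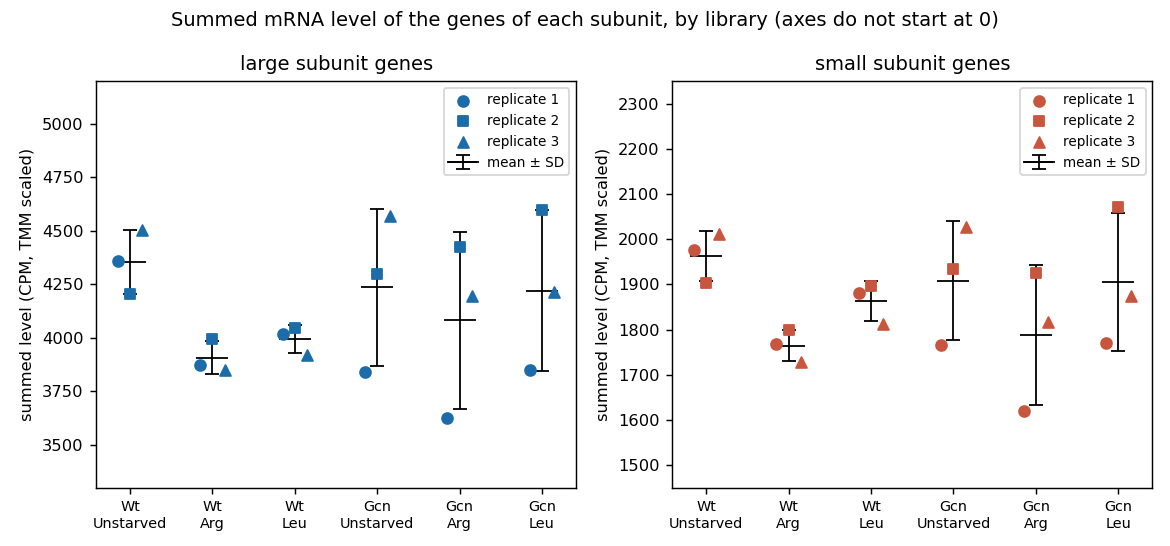
Summed level of the large subunit genes (left) and the small subunit genes (right) in each of the 18 libraries, in CPM, with the mean and SD of each group and a marker for each replicate number; the vertical axes do not start at 0. The Wt starved libraries lie below all Wt Unstarved libraries, and the Gcn library numbered 1 (circle) is the lowest in each Gcn group.

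In Gcn cells 13 of these genes passed the test without arginine and 11 without leucine. In Gcn Arg against Gcn Unstarved, 9 of 77 were lower and 4 higher, where 13.7% and 14.3% of all 16369 genes tested were, and the median was -0.06. In Gcn Leu against Gcn Unstarved, 6 were lower and 5 higher, where 10.0% and 11.7% of all genes tested were, and the median was 0.01. Both shares are near or below those of all genes. With counts scaled by library size alone, the median of all genes moved to 0.11 and 0.08 and that of these genes to 0.06 and 0.08, so their sign in Gcn Arg turned, while relative to all genes they lay at -0.05 and -0.00. Calls then numbered 7 higher and 4 lower in Gcn Arg and 12 and 5 in Gcn Leu, and over all genes the higher share of calls rose from 51.0% to 71.2% and from 53.9% to 71.0%.

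Same-numbered Gcn libraries deviated together, though Gcn Unstarved replicate 3 was closer to replicate 2 of both starved groups than to their replicate 3. A fit with the replicate number as a block gave more calls. It called 25 of 77 lower and 9 higher in Gcn Arg, where 24.2% and 22.3% of all genes were called, and 13 lower and 14 higher in Gcn Leu, where 20.2% and 20.5% were. Without the 3 libraries numbered 1 and without a block, 11 were lower and 5 higher in Gcn Arg, beside 12.5% and 13.0% of all genes, and 7 lower and 7 higher in Gcn Leu, beside 8.95% and 10.9%. Leaving out Gcn Unstarved replicate 2 lowered the calls in Gcn Arg from 13 to 8, while the share of all genes called fell from 28.0% to 19.4%.

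The Gcn libraries numbered 1 held less of these mRNAs than the others. Large subunit sums were 3843, 4300 and 4568 CPM in Gcn Unstarved, 3624, 4425 and 4196 CPM in Gcn Arg and 3848, 4598 and 4216 CPM in Gcn Leu, each in the order of the replicate numbers. Of the 77 genes, 71, 75 and 65 lay below their group mean in the library numbered 1, with a median departure of -0.15, -0.16 and -0.14 on the log2 scale, while the median over all tested genes was 0.02 to 0.03. The source of the difference between these libraries was not tested.

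**Figure D4:**
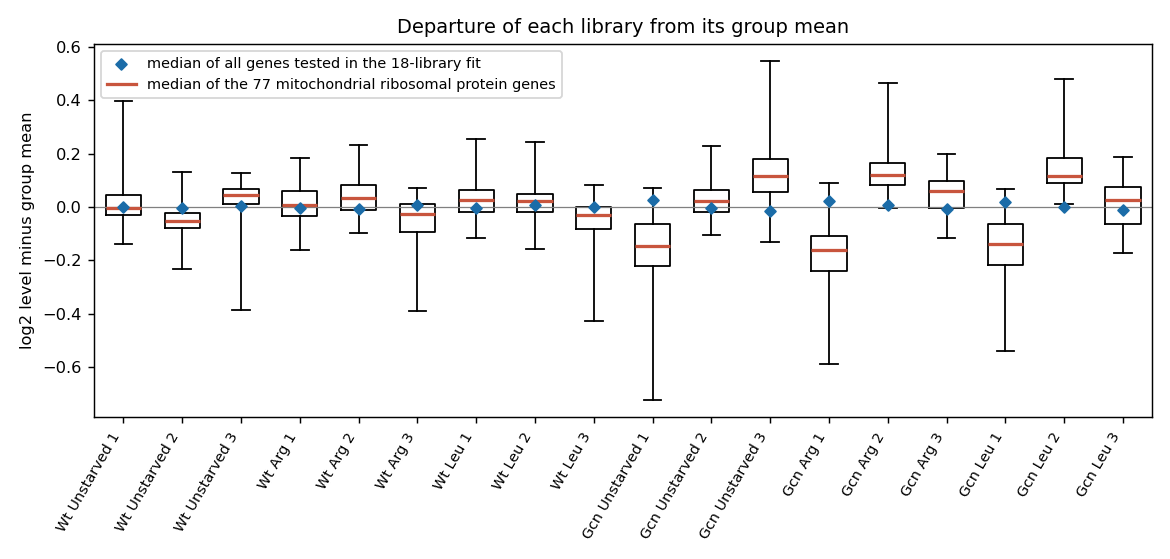
Departure of the 77 genes from their group mean in each library, on the log2 scale, as boxes with whiskers to the extremes and the median in red; blue diamonds give the median over all tested genes. The 3 Gcn libraries numbered 1 have member medians of -0.15, -0.16 and -0.14, below those of the other 15 libraries.

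All 9 genes called lower in Gcn Arg were also called lower in Wt Arg, where they make up 26.5% of the 34. These were Mrpl12, Mrpl14, Mrpl32, Mrpl47, Mrpl58, Mrps12, Mrps18a, Mrps2 and Mrps7. The 6 genes called lower in Gcn Leu, namely Mrpl12, Mrpl14, Mrpl28, Mrpl37, Mrpl58 and Mrps24, were all among the 20 lower in Wt Leu. The Wt and Gcn comparisons share no library. The same overlap over all genes was not counted, so it cannot be read as particular to these genes.

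Whether the change differed with GCN2 was tested as an interaction over all 18 libraries. The outcome depended on the replicate block. Without it, 0 of the 77 genes passed for arginine and 0 for leucine, where 2.30% and 0.821% of all 16924 genes did. At an unadjusted p under 0.05 there were 11 (14.3%) and 14 (18.2%) in edgeR, beside 16.3% and 13.5% of all genes. DESeq2 called 0 and 1, beside 4.61% and 2.23% of all genes. With a block for the replicate number within each genotype, edgeR called 11 higher and 2 lower for arginine, beside 5.91% and 8.89% of all genes, and 16 higher and 2 lower for leucine, beside 4.43% and 6.67%. Higher here means a change in Gcn that lay above that in Wt. Same-numbered libraries were correlated in Gcn, at 0.18 to 0.448 for arginine and 0.2 to 0.463 for leucine. Gcn Unstarved replicate 3, however, correlated more with replicate 2 of Gcn Arg and Gcn Leu (0.217 and 0.206) than with their replicate 3 (0.18 and 0.2). In Wt same-numbered pairs were weaker but all positive, at 0.096 to 0.201 and 0.049 to 0.197. Wt pairs with different numbers were all negative. Deviations from a group mean sum to 0, so positive same-numbered pairs by themselves push the other pairs below 0. The negative values are therefore no separate evidence of pairing. The median interaction was 0.09 for arginine and 0.13 for leucine without the block. With the block, the lower genes were Mrpl1 and Mrpl47 for arginine and Mrpl1 and Mrpl37 for leucine, and Mrpl18, Mrpl43 and Mrpl49, singled out after their values were seen, were among the higher genes for both. Without the 3 Gcn libraries numbered 1 and without a block, 2 genes passed for arginine and 0 for leucine, beside 2.76% and 0.742% of all genes. Without Gcn Arg replicate 1, 3 genes passed for arginine (3.03% of all genes), and without Gcn Leu replicate 3, 1 for leucine (1.49%). A call in 1 genotype that is missing in the other does not by itself show a difference between them.

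Mrpl14 encodes uL14m, a large subunit protein at the face toward the small subunit, where the assembly factor MALSU1 docks. Its level was 27.3, 26.7 and 27.9 CPM in Wt Unstarved, 12.8, 12.3 and 10.7 CPM in Wt Arg, and 16.2, 12.8 and 13.9 CPM in Wt Leu. In Gcn cells it was 20.5, 26.4 and 27.6 CPM unstarved, 11.5, 13.1 and 13.4 CPM in Arg, and 10.8, 13.1 and 13.7 CPM in Leu. Every starved library lay below every unstarved library of either genotype. The log2 fold change was -1.19 ± 0.10 in Wt Arg (SE; adjusted p = 1.14e-07, edgeR), -0.94 ± 0.10 in Wt Leu (3.35e-06), -0.97 ± 0.14 in Gcn Arg (0.00019) and -0.98 ± 0.14 in Gcn Leu (0.000254). It was the largest change of the 77 genes in each of these 4 comparisons. The interaction was 0.21 ± 0.17 for arginine and -0.05 ± 0.17 for leucine, neither of them called with or without the block. Of the exonic bases of Mrpl14, 11.2% lie in Tmem63b on the opposite strand.

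Mrpl12, the stalk protein that also binds the mitochondrial RNA polymerase, and Mrpl58, a peptidyl-tRNA hydrolase built into the large subunit, were likewise called lower in all 4. Mrpl12 read 213, 192 and 231 CPM in Wt Unstarved, 151, 152 and 152 CPM in Wt Arg, and 171, 163 and 170.1 CPM in Wt Leu. In Gcn cells it read 179, 185 and 201 CPM unstarved, 123, 142 and 134 CPM in Arg, and 152, 157 and 139 CPM in Leu. Within each genotype no starved library reached the unstarved range. The log2 fold changes of Mrpl12 were -0.48 ± 0.07 and -0.34 ± 0.07 in Wt (Arg, Leu) and -0.49 ± 0.09 and -0.33 ± 0.09 in Gcn, with adjusted p of 2.07e-05, 0.000923, 0.000971 and 0.0174 in edgeR, the last lost in 2 of 6 fits without 1 library.

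Mrpl58 read 56.6, 55.0 and 56.4 CPM in Wt Unstarved, 43.3, 43.4 and 41.6 CPM in Wt Arg, and 43.0, 37.5 and 37.5 CPM in Wt Leu. In Gcn the values were 48.5, 55.0 and 59.2 CPM unstarved, 37.4, 44.5 and 40.6 CPM in Arg, and 33.4, 39.5 and 38.1 CPM in Leu. The starved and unstarved ranges did not overlap in either genotype. The log2 fold changes of Mrpl58 were -0.39 ± 0.07, -0.51 ± 0.07, -0.40 ± 0.11 and -0.54 ± 0.11 in the same order, and the call in Gcn Arg was lost in 3 of 6 fits that left out 1 library.

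Mrpl28 and Mrpl18, large subunit proteins, fell by 0.41 and 0.36 on the log2 scale in Wt Arg and by 0.38 and 0.37 in Wt Leu. In Gcn Leu Mrpl28 fell by 0.37, while Mrpl18 was at -0.02 ± 0.14 and not called. Mrps24, the small subunit protein uS3m, fell by 0.30 in Wt Leu and by 0.47 in Gcn Leu, and was not called in either arginine comparison (-0.13 ± 0.08 and -0.22 ± 0.11). Mrps6, the small subunit protein bS6m, fell by 0.56 in Wt Arg and was not called in the other 3. Of its exonic bases 19.9% lie in Slc5a3 and Gm49711 on the same strand, and 15.4% of those of Mrps24 lie in Urgcp, likewise.

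The next question was whether the 2 amino acids differed. Comparing Wt Leu with Wt Arg, 10 of 77 genes were higher and 3 lower, where 5.25% and 4.76% of all genes tested were. By subunit 5 of 48 large and 5 of 29 small subunit genes were higher, and by structure 6 of 50 and 4 of 26. The fit with the replicate block called 19 higher and 7 lower, beside 10.6% and 9.98% of all genes. Leaving out any 1 of these 6 libraries gave 5 to 8 calls in place of 13, while the share of all genes called fell from 10.0% to between 5.32% and 7.63%. The calls without Wt Arg replicates 1, 2 and 3 were 8, 5 and 6, and without Wt Leu replicates 1, 2 and 3 they were 7, 8 and 7.

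Comparing Gcn Leu with Gcn Arg, 5 genes were higher and 2 lower, where 4.64% and 3.88% of all genes tested were. The block raised this to 21 higher and 9 lower, beside 14.4% and 12.3%. Without the libraries numbered 1 there were 4 higher and 3 lower, beside 4.12% and 3.27%. All 5 higher genes, Mrpl2, Mrpl32, Mrpl47, Mrps18a and Mrps7, were among the 10 in Wt. The overlap over all genes was not counted here either. Mrps31 was lower in both genotypes, a call lost in 4 of 6 fits without 1 library in each.

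Mrpl32, a large subunit protein that the m-AAA protease cleaves into its mature form, moved in opposite directions under the 2 starvations in Wt. It stood at 36.6, 38.0 and 40.9 CPM unstarved, 31.2, 35.5 and 33.4 CPM in Arg, and 45.6, 52.3 and 47.2 CPM in Leu. The 3 Wt groups did not overlap. In Gcn it stood at 37.9, 49.5 and 48.3 CPM unstarved, 29.8, 39.1 and 31.6 CPM in Arg, and 50.8, 62.2 and 59.7 CPM in Leu, where the Arg and Unstarved ranges overlap and all Leu libraries lie above both. Mrpl32 was higher in Leu than in Arg by 0.53 ± 0.08 in Wt (adjusted p = 0.000277, edgeR) and by 0.78 ± 0.14 in Gcn (0.00343). Against the unstarved cells the log2 fold changes were -0.20 ± 0.08 and 0.33 ± 0.08 in Wt, both called, and -0.42 ± 0.14 (called, though lost in 4 of 6 fits without 1 library) and 0.36 ± 0.13 (not called) in Gcn.

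Mrpl47, or uL29m, sits near the exit of the peptide tunnel and fell only where arginine was missing, as far as the test called it. Its values were 63.9, 61.6 and 66.7 CPM in Wt Unstarved, 45.8, 55.0 and 45.5 CPM in Wt Arg, and 63.6, 62.9 and 58.1 CPM in Wt Leu. In Gcn they were 63.3, 73.4 and 82.1 CPM unstarved, 40.4, 47.6 and 43.9 CPM in Arg, and 59.9, 76.2 and 75.7 CPM in Leu. The Arg libraries lay below all others of their genotype, and the Leu and Unstarved ranges overlapped. Mrpl47 changed by -0.39 ± 0.08 in Wt Arg and -0.72 ± 0.13 in Gcn Arg, and differed between Leu and Arg by 0.33 ± 0.08 (adjusted p = 0.0112, lost in 2 of 6 fits without 1 library) and 0.69 ± 0.12 (0.00422, edgeR).

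Mrps18a is 1 of 3 paralogs of bacterial S18, and its product is placed in the large subunit. It read 46.5, 49.0 and 53.5 CPM in Wt Unstarved, 38.4, 37.4 and 38.0 CPM in Wt Arg, and 47.8, 50.1 and 48.3 CPM in Wt Leu. In Gcn it read 45.9, 48.1 and 45.1 CPM, 33.5, 39.3 and 32.1 CPM, and 56.9, 58.3 and 48.9 CPM in the same groups. As with Mrpl47, the Arg libraries were the lowest of each genotype. The Leu against Arg difference of Mrps18a was 0.36 ± 0.07 in Wt and 0.64 ± 0.10 in Gcn (adjusted p = 0.0025 and 0.00159, edgeR). Its paralog Mrps18b, of the small subunit, fell by 0.17 ± 0.06 in Wt Arg (adjusted p = 0.0343, lost in 4 of 6 fits without 1 library) and was at -0.12 ± 0.09 in Gcn Arg. Mrps18c had at most 257 counts in a library and was not called in any comparison, with log2 fold changes from -0.08 to 0.24 and SE of 0.23 to 0.39 in the 4 starvation comparisons.

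Mrps12, the small subunit protein uS12m of the decoding centre, stood at 58.0, 55.7 and 60.6 CPM in Wt Unstarved. It stood at 40.4, 37.1 and 34.1 CPM in Wt Arg and at 51.9, 46.9 and 51.8 CPM in Wt Leu, 3 groups without overlap. In Gcn it was 65.0, 62.2 and 69.1 CPM unstarved, 45.5, 52.4 and 53.0 CPM in Arg, and 56.1, 66.6 and 62.3 CPM in Leu, with Leu overlapping Unstarved. Mrps12 changed by -0.64 ± 0.08 in Wt Arg and -0.37 ± 0.10 in Gcn Arg (adjusted p = 4.6e-06 and 0.0125, edgeR), the second lost in 1 of 6 fits without 1 library. In Wt Leu the change was -0.21 ± 0.07, a call lost in 4 of 6 fits without 1 library, and in Gcn Leu it was -0.08 ± 0.10 and not called. Mrps7, the small subunit protein uS7m, fell by 0.45 in Wt Arg and by 0.38 in Gcn Arg and was higher in Leu than in Arg by 0.27 ± 0.06 and 0.47 ± 0.09.

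Mrps31 moved the other way. This gene, for a small subunit protein without bacterial counterpart, had 96.5, 99.0 and 107 CPM in Wt Unstarved, 117, 126 and 127 CPM in Wt Arg, and 102, 109 and 99.0 CPM in Wt Leu. In Gcn it had 98.9, 116 and 122 CPM unstarved, 131, 146 and 158 CPM in Arg, and 94.5, 112 and 117 CPM in Leu. Arginine-starved libraries were the highest of each genotype. Mrps31 rose by 0.29 ± 0.06 in Wt Arg and 0.38 ± 0.12 in Gcn Arg (adjusted p = 0.00156 and 0.0264, edgeR), and the Gcn call was lost in 4 of 6 fits without 1 library.

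Mrpl37, a large subunit protein without bacterial counterpart, was lowest under leucine starvation. It read 98.4, 93.1 and 107 CPM in Wt Unstarved, 91.9, 83.1 and 87.2 CPM in Wt Arg, and 80.1, 77.0 and 76.8 CPM in Wt Leu. In Gcn it read 91.0, 98.5 and 97.5 CPM unstarved, 85.6, 94.7 and 82.8 CPM in Arg, and 64.5, 64.3 and 59.2 CPM in Leu. All Leu libraries lay below all others of their genotype. The log2 fold change of Mrpl37 was -0.36 ± 0.07 in Wt Leu and -0.60 ± 0.08 in Gcn Leu (adjusted p = 0.000748 and 0.00025, edgeR). Leu against Arg differed by -0.49 ± 0.08 in Gcn (adjusted p = 0.00316) and by -0.17 ± 0.07 in Wt, which was not called. Mrpl41, another large subunit protein, fell by 0.36 in Wt Leu and was lower in Wt Leu than in Wt Arg by 0.35 ± 0.08 (lost in 1 of 6 fits without 1 library), while in Gcn Leu it was at -0.02 ± 0.17.

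**Figure D5:**
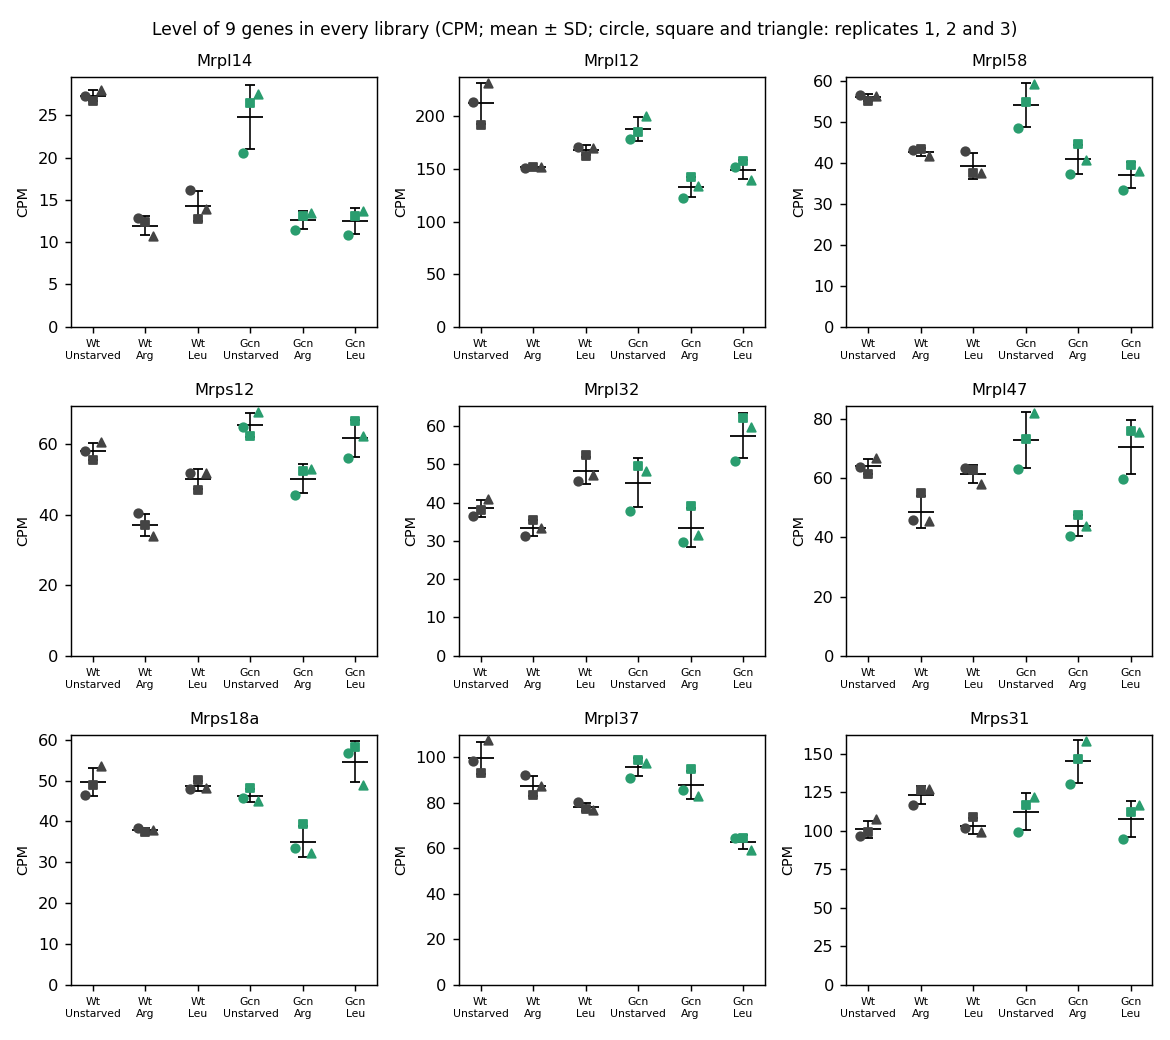
Level in CPM of 9 genes in every library of the 6 groups, Wt in grey and Gcn in green, with mean and SD and a marker for each replicate number; every vertical axis starts at 0. Mrpl14 is lower in all starved groups, Mrpl47 and Mrps18a are lowest in Arg, Mrpl37 is lowest in Leu, and Mrps31 is highest in Arg.

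Among the genes that rose, Mrpl9, the large subunit protein bL9m, had 88.7, 80.4 and 82.2 CPM in Wt Unstarved, 94.0, 97.8 and 98.8 CPM in Wt Arg, and 84.9, 90.1 and 85.9 CPM in Wt Leu. In Gcn it had 72.0, 67.8 and 74.1 CPM unstarved, 93.8, 101 and 94.8 CPM in Arg, and 94.2, 97.1 and 87.0 CPM in Leu. Both starved Gcn groups lay above the unstarved one, and in Wt only the Arg libraries did so without overlap. The changes of Mrpl9 were 0.21 ± 0.06 in Wt Arg, 0.45 ± 0.08 in Gcn Arg and 0.39 ± 0.08 in Gcn Leu (adjusted p = 0.00901, 0.001 and 0.00382, edgeR).

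Mrpl2, or uL2m, lies close to the peptidyl transferase centre. It had 112, 107 and 115 CPM in Wt Unstarved, 108, 107 and 111 CPM in Wt Arg, and 124, 127 and 130.2 CPM in Wt Leu. In Gcn it had 94.1, 97.5 and 99.7 CPM unstarved, 101, 112 and 99.4 CPM in Arg, and 130.5, 144 and 123 CPM in Leu. Leucine-starved libraries were the highest of each genotype. Mrpl2 rose by 0.19 ± 0.06 in Wt Leu and 0.45 ± 0.09 in Gcn Leu (adjusted p = 0.0165 and 0.00224, edgeR), and the Wt call was lost in 3 of 6 fits without 1 library.

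Mrpl49, a large subunit protein, stood at 96.8 to 106 CPM in all Wt libraries and at 104 to 109.8 CPM in Gcn Unstarved. It stood at 128, 142 and 135 CPM in Gcn Arg and 129, 142 and 126 CPM in Gcn Leu, above every unstarved library. The rises of Mrpl49 were 0.33 ± 0.08 and 0.31 ± 0.08 (adjusted p = 0.00804 and 0.0164, edgeR), the latter lost in 2 of 6 fits without 1 library. The interactions of Mrpl49, 0.26 ± 0.09 and 0.25 ± 0.09, were not called without the block and were called with it (adjusted p = 0.0174 and 0.0242, edgeR). Mrpl43, also of the large subunit, rose by 0.32 ± 0.09 in Gcn Leu (lost in 4 of 6 fits without 1 library) and fell by 0.22 ± 0.06 in Wt Arg. Mrpl1, of the mobile L1 stalk, stood at 69.8 to 72.8 CPM in Wt Unstarved and 76.7, 90.9 and 84.4 CPM in Wt Arg, a rise of 0.24 ± 0.07, lost in 1 of 6 such fits. In Wt Leu it was at 69.6, 75.9 and 70.2 CPM, lower than in Arg by 0.23 ± 0.07, a call lost in 5 of 6 fits without 1 library. In Gcn, Mrpl1 was not called in any comparison of starved groups, with 74.9 to 85.9 CPM unstarved, 76.0 to 81.9 CPM in Arg and 64.0 to 72.8 CPM in Leu. Mrpl27, the large subunit protein bL27m, rose by 0.22 ± 0.07 in Wt Arg, a call lost in 4 of 6 fits without 1 library.

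Mrps16, a small subunit protein, fell by 0.21 ± 0.07 in Wt Arg (adjusted p = 0.0278, lost in 2 of 6 fits without 1 library) and was at -0.04 ± 0.07 in Wt Leu, 0.05 ± 0.16 in Gcn Arg and 0.27 ± 0.16 in Gcn Leu. Mrps36 was not called in any of the 9 comparisons, at -0.16 ± 0.09, -0.19 ± 0.10, -0.03 ± 0.13 and 0.00 ± 0.12 in the 4 starvation comparisons.

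Unstarved cells of the 2 genotypes were compared next. In Gcn Unstarved against Wt Unstarved, 9 of 77 genes were lower and 0 higher, where 16.2% and 16.6% of all genes tested were, and the median was -0.05. The lower genes included Mrps26 (-0.39 ± 0.09), Mrpl38 (-0.32 ± 0.07), Mrpl10 (-0.31 ± 0.08) and Mrpl57 (-0.29 ± 0.11), the last a call lost in 5 of 6 fits without 1 library. Mrps26 encodes a small subunit protein, Mrpl38 and Mrpl57 large subunit proteins, and Mrpl10 the protein that anchors the Mrpl12 stalk. Mrpl10 stood at 112, 113 and 121 CPM in Wt Unstarved and at 95.6, 96.2 and 88.1 CPM in Gcn Unstarved, without overlap. After starvation the Gcn level of Mrpl10 was 112, 125 and 106 CPM in Arg, a rise of 0.30 ± 0.09 (adjusted p = 0.0253, edgeR; lost in 3 of 6 fits without 1 library), and 114, 118 and 98.8 CPM in Leu, not called. In Wt Arg it was at 120.4, 121 and 126 CPM and in Wt Leu at 109.5, 118 and 119 CPM, neither called.

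Without the 3 Gcn libraries numbered 1, 6 genes were lower and 8 higher, beside 16.6% and 14.9% of all genes. Leaving out Wt Unstarved replicate 1, Wt Unstarved replicate 3 or Gcn Unstarved replicate 2 lowered the 9 calls to 4, 5 and 5, while the share of all genes called went from 32.8% to 25.3%, 25.2% and 26.2%. Of the 8 fixed genes, Mrpl12 (-0.17 ± 0.08), Mrpl58 (-0.05 ± 0.09), Mrps12 (0.17 ± 0.08), Mrps16 (0.02 ± 0.12), Mrps18a (-0.10 ± 0.08), Mrps18b (-0.12 ± 0.07), Mrps18c (0.10 ± 0.36) and Mrps36 (-0.08 ± 0.11) were not called. Beside this contrast, 3 of 5 tested fibroblast markers (Col3a1, Col1a2, Col1a1) and 3 of 11 tested lineage markers (T, Krt18, Cdx2) were lower in Gcn, by 2.22 to 4.04 on the log2 scale, while the neural marker Sox1 was higher by 0.80 and Nanog by 0.85. Of 9 tested histone transcripts, 6 were higher in Gcn (median 0.92) and 0 lower, where 16.6% and 16.2% of all genes tested were. The part of these markers and histone transcripts in the result was not tested.

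Histone transcripts, which carry few or no poly(A) tails and were listed as a check on RNA quality and selection, moved with starvation and with genotype. What moved them was not tested. The 10 listed summed to 20.2 to 28.7 CPM in Wt Unstarved, 38.7 to 42.8 in Wt Arg and 32.4 to 39.3 in Wt Leu. In Gcn they summed to 34.8 to 40.0, 56.1 to 71.6 and 48.2 to 67.5 CPM. Of the 9 tested, 6 were higher in Wt Arg, 5 in Wt Leu and 3 in each Gcn comparison with unstarved cells. Over all genes tested, 20.9%, 15.5%, 14.3% and 11.7% were higher in Wt Arg, Wt Leu, Gcn Arg and Gcn Leu. The part of the histone transcripts in the results was not tested.

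Genes that act with the mitoribosomal proteins did not all follow them. Of 5 subunits with other names, Gadd45gip1 (mL64) fell by 0.29 in Wt Arg and by 0.28 in Wt Leu, and Aurkaip1 (mS38) by 0.22 in Wt Arg, whereas Ptcd3 (mS39) rose by 0.32 in Wt Arg. In Gcn Leu Ptcd3 fell by 0.52, and it was lower in Leu than in Arg in both genotypes (-0.45 ± 0.08 and -0.45 ± 0.11). Of 27 assembly factors, 9 were higher and 8 lower in Wt Arg, 6 and 4 in Wt Leu, 10 and 2 in Gcn Arg, and 6 and 1 in Gcn Leu. Over all genes tested, 20.9% were higher and 20.0% lower in Wt Arg, and 15.5% and 14.1% in Wt Leu. In Gcn Arg they were 14.3% and 13.7%, and in Gcn Leu 11.7% and 10.0%. Mrm1, an assembly factor that methylates the large rRNA, rose by 0.81 ± 0.09, 0.59 ± 0.09, 1.29 ± 0.11 and 0.88 ± 0.10 in these 4 comparisons, while the GTPase gene Noa1 fell by 0.73, 0.44, 0.55 and 0.60.

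Of 15 translation factors, 5 were higher and 1 lower in Wt Arg, 4 and 1 in Wt Leu, 3 and 1 in Gcn Arg, and 1 and 0 in Gcn Leu. The shares over all genes are those given for the assembly factors. Tufm, the mitochondrial elongation factor Tu, fell by 0.63 in Wt Arg and by 0.53 in Gcn Arg, and the initiation factor gene Mtif3 rose by 0.37 in Wt Leu, 0.34 in Gcn Arg and 0.63 in Gcn Leu. The small mitoribosomal rRNA mt-Rnr1 was lower in all 4, by 0.67, 0.77, 0.72 and 1.04, in libraries made by poly(A) selection. The large rRNA mt-Rnr2 rose by 0.32 in Wt Leu. Of the mitochondrially encoded protein mRNAs 7 of 13 were tested, and those called were mt-Nd1 in both arginine comparisons (-0.35 and -0.45), mt-Nd6 in Gcn Arg (-0.49) and mt-Co1 in both leucine comparisons (-0.36 and -0.65).

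Of 20 tested regulators of mitochondrial gene expression, 11 were lower and 2 higher in Wt Arg, 7 and 2 in Wt Leu, 12 and 0 in Gcn Arg, and 6 and 0 in Gcn Leu. Over all genes tested, the lower shares in this order were 20.0%, 14.1%, 13.7% and 10.0%. The higher shares were 20.9%, 15.5%, 14.3% and 11.7%. Myc, a broad activator of growth and ribosome genes, fell by 0.80 and 0.43 in the Wt comparisons (Arg, Leu) and by 1.00 and 0.63 in the Gcn comparisons. Pprc1, a coactivator of NRF1, fell by 0.72 and 0.82 in the 2 arginine comparisons and by 0.25 in Wt Leu. The nuclear receptor gene Esrra fell by 0.75 in Wt Arg, 0.47 in Wt Leu and 0.69 in Gcn Arg. At the other end, the highest log2 fold change among the 20 was 0.47 in Wt Arg and 0.61 in Wt Leu. In Gcn Arg and Gcn Leu it was 0.14 and 0.12. Of the 84 cytosolic ribosomal protein genes, 25 and 9 were lower in the Wt comparisons with Arg and Leu. In those of Gcn 10 and 0 were lower, and none was called higher in these 4 comparisons. At an unadjusted p under 0.05 in edgeR, 7 passed in Gcn Leu in either direction, beside 33.6% of all genes tested. Log2 fold changes lay below 0 for 83, 78, 79 and 65 of the 84 in Wt Arg, Wt Leu, Gcn Arg and Gcn Leu. Their medians were -0.2, -0.12, -0.21 and -0.09. The medians of the mitochondrial ribosomal protein genes in this order were -0.16, -0.09, -0.06 and 0.01. The cytosolic median was thus the lower one in each comparison. No test of a difference between these lists and the mitochondrial ribosomal protein genes was made.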

How the data were processed

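Poly(A) RNA was sequenced in 18 libraries from 1 µg of total RNA each, with a directional kit and paired reads of 43 bp, per the labels' protocols. The submitters' processing notes name STAR 2.7.4a, HTSeq, DESeq2, DESeq 1.30.1, R 4.0.3 and GRCm38; for annotation release and strand setting, the sources used here give nothing. The deposited tables hold raw counts per gene, which were used, and a normalized signal, which equals the counts divided by size factors and was only checked. The members and gene lists were chosen with earlier results of these data known.

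Genes were filtered (filterByExpr), scaled by TMM and tested with edgeR 4.0.16 (quasi-likelihood, robust) in R 4.3.3. Starvation was fitted within each genotype (9 libraries), genotype and interactions over all 18. P-values were Benjamini-Hochberg adjusted over all genes tested, and a call is an adjusted p under 0.05. SE is the log2 fold change over the square root of F. DESeq2 1.42.0 was an alternative. The fits were tried on simulated counts of independent libraries with a biological coefficient of variation of 0.05. In the data it was 0.0749 (Wt), 0.1087 (Gcn) and 0.0935 (all 18 libraries). The simulation therefore does not show how the fits perform at that spread or with correlated replicates. CPM are TMM-scaled over 18 libraries. Library totals were 14.8 to 38.8 M counts. Summed over the libraries, counts were lowest for Mrpl53 (7), Mrpl33 (2440) and Mrps18c (2738), which limits the precision of their values.

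Named genes are up to 4 called rises and 4 called falls per comparison, 8 fixed genes (Mrpl12, Mrpl58, Mrps12, Mrps16, Mrps18a, Mrps18b, Mrps18c, Mrps36), the 3 highest and 3 lowest per exon length in Wt Unstarved, and any gene failing the filter. Genes without a symbol held at most 0.00236% of counts. Same-numbered libraries deviated together in every pair (r over 0.1) for Gcn Arg against Unstarved (0.180 to 0.448), Gcn Leu against Unstarved (0.200 to 0.463), Wt Leu against Arg (0.166 to 0.285) and Gcn Leu against Arg (0.305 to 0.485). The blocked value stands beside those counts. Gcn Unstarved replicate 3 was nevertheless closer to replicate 2 of Gcn Arg and Gcn Leu (0.217 and 0.206) than to their replicate 3. For Wt Arg and Wt Leu against Unstarved the pairs were positive but weaker (0.096 to 0.201 and 0.049 to 0.197), and blocked totals are given there too. Alternatives were other scalings, no filter, DESeq2, the replicate block alone or with GC or length correction, all 6 groups in the fit, leaving out the 3 Gcn libraries numbered 1, and leaving out each library. GC correction without a block, transcript length, the structural assignment and the tested genes as promoter background were chosen after seeing the data.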

Additional observations from a re-analysis of the deposited data

Results flagged for a closer look

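In the edgeR fit without a replicate block, 0 of the 77 mitochondrial ribosomal protein genes passed the interaction test for either amino acid. Of all genes, 2.30% passed for arginine and 0.821% for leucine. With the block 13 passed for arginine and 18 for leucine, beside 14.8% and 11.1% of all genes. Without the block, in the accompanying lists, 4 interactions passed, where the change in Gcn differed from that in Wt. They came from 1 of 27 assembly factors and 2 of 20 tested regulators of mitochondrial gene expression for arginine. For leucine 1 of these 20 regulators passed. No gene of the other lists passed. Rcc1l, a mitoribosome assembly factor, had an interaction of 0.45 ± 0.11 for arginine (SE; adjusted p = 0.037, edgeR). Ppargc1b, a coactivator of mitochondrial genes, had -0.95 ± 0.24 for arginine (0.0336). Atf4, the transcription factor translated when eIF2α is phosphorylated, had -1.02 ± 0.13 for arginine (4.99e-05) and -0.91 ± 0.13 for leucine (0.000344).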

How the results depend on the processing

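Counts of called mitochondrial ribosomal protein genes moved with the design of the fit, and the share of all genes called moved too. With all 6 groups in the fit the calls were 24 in place of 38 (Wt Arg; all genes 32.4% in place of 40.9%), 12 in place of 22 (Wt Leu; 21.9%, 29.6%), 21 in place of 13 (Gcn Arg; 33.9%, 28.0%), 19 in place of 11 (Gcn Leu; 27.6%, 21.8%), 5 in place of 13 (Wt Leu against Arg; 5.41%, 10.0%) and 15 in place of 7 (Gcn Leu against Arg; 13.9%, 8.52%). The replicate block gave 45, 30, 34, 27, 26 and 30 in that order, with all genes at 50.1%, 40.6%, 46.4%, 40.6%, 20.6% and 26.6%. It gave 12 in place of 9 for genotype (34.9%, 32.8%), and 13 and 18 in place of 0 for the interactions (14.8% and 11.1%). The block with GC correction gave 53 (Wt Arg, 48.7%), 34 (Wt Leu, 39.5%), 38 (Gcn Arg, 8192 of all 16369 genes) and 30 (Gcn Leu, 44.9%). It gave 26 (Wt Leu against Arg, 20.4%), 33 (Gcn Leu against Arg, 31.4%), 16 (genotype, 34.9%), 10 and 13 (interactions, 13.8% and 11.1%). Log2 fold change and GC percent correlated at -0.39 over the 77 genes in Wt Arg (Spearman, all genes -0.31). The values were -0.19 in Wt Leu (-0.26), -0.12 in Gcn Arg (-0.05) and 0.16 in Gcn Leu (-0.01). The block with length correction gave 47 (50.2%) in Wt Arg and 31 (41.8%) in Wt Leu. It gave 39, 30, 27, 31, 16, 10 and 17 for Gcn Arg, Gcn Leu, both Leu against Arg comparisons, genotype and the interactions. All genes stood at 49.6%, 44.2%, 22.1%, 30.5%, 36.7%, 16.1% and 12.3%. Scaling by library size alone gave 17 in Gcn Leu (22.5%) and 2 for the arginine interaction (2.72%), no filter gave 13 in Gcn Leu against Arg (5.47%), and DESeq2 gave 1 for the leucine interaction (2.23%). Without the 3 Gcn libraries numbered 1, genotype calls were 14 (31.5%) and arginine interaction calls 2 (2.76%). The cause was not tested.

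Leaving out 1 library gave 27 to 39 calls (Wt Arg), 15 to 23 (Wt Leu), 8 to 13 (Gcn Arg), 8 to 12 (Gcn Leu), 5 to 8 (both Leu against Arg comparisons), 4 to 12 (genotype), 0 to 3 and 0 to 1 (interactions). Of 58 calls of named genes, 37 held in every such fit, 21 were lost in at least 1 and 0 changed sign. Over 1804 alternative values of named genes, 1655 kept direction and call, 101 lost the call, 44 gained it and 4 turned sign. Those 4 were uncalled: Mrps18c without Wt Unstarved replicate 1 (0.16 in Wt Arg, 0.23 in Wt Leu; the lowest values, without replicate 3, were -0.25 and -0.18), and Mrps18a by genotype with GC correction (0.03 with the block and 0.03 without).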
